A study of Mus musculus with 6 samples.

Results

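The miR-15, miR-16, miR-195 and miR-497 family is a group of microRNAs that share 1 seed, the stretch of bases 2 to 8 with which a microRNA finds its targets. Its members here were the 10 mature strands of the Mir15a-Mir16-1, Mir15b-Mir16-2 and Mir497-Mir195a loci, chosen by name among the 1390 mature miRNAs of the table. All 10 were present, and all 10 passed the low-count filter that left 519 miRNAs for testing. Small RNA was sequenced from whole thymus of wild-type C57BL mice aged 5 weeks, with 3 libraries per group. Control mice were not irradiated. Irradiated mice were exposed to 6 Gy of X-rays, delivered at 800 cGy/min from 40 cm, and thymus from both groups was frozen after 24 h. The thymus was not sorted, so a level is an average over thymocytes, epithelium, vessels, connective tissue and blood, and fewer cells of a type cannot be told apart from less RNA per cell.

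A microRNA is cut from a hairpin precursor, and usually 1 of the hairpin's strands is loaded into Argonaute while its partner, the passenger strand, is mostly degraded. The loaded strand pairs through its seed with messenger RNAs and lowers their output. The miR-15/16 group is known as a brake on the cell cycle and on survival, with cyclin and Bcl2 messenger RNAs among its textbook targets, and deletion of the Dleu2 locus that carries miR-15a and miR-16-1 is a classic lesion of chronic lymphocytic leukaemia. The miR-195 and miR-497 pair has the same seed and is known from muscle, vessel and connective tissue.

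The mature sequences are shown because the shared seed defines the family, while the remaining bases and the passenger strands tell its members and loci apart. All 10 members matched RefSeq (GRCm38.p6) by name, and 10 had the same sequence as in the deposited table. Each line reads 5′ to 3′, and the capitals mark the seed. The 5 members that carry the family seed AGCAGCA are the 5p strands.
mmu-miR-15a-5p: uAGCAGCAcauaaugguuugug
mmu-miR-15b-5p: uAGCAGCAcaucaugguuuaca
mmu-miR-16-5p: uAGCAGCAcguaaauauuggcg
mmu-miR-195a-5p: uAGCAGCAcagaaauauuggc
mmu-miR-497a-5p: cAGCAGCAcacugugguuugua
The 5 passenger strands, which pair with the 5p strands in the hairpin, have seeds of their own and share none of them.
mmu-miR-15a-3p: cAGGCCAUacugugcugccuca
mmu-miR-15b-3p: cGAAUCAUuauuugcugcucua
mmu-miR-16-1-3p: cCAGUAUUgacugugcugcuga
mmu-miR-16-2-3p: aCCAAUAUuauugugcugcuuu
mmu-miR-195a-3p: cCAAUAUUggcugugcugcucc

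The 5p members differ from each other at 2 to 11 bases. The pair miR-16-5p and miR-497a-5p differs most, at 11 of 22. MiR-16-5p and miR-195a-5p differ at 2 of the 21 bases that can be compared, the first of them at base 10. MiR-15a-5p and miR-15b-5p differ at 4 of 22 bases, and the first of these is base 12. How the deposited counts treat reads with a mismatch is not given in the sources used here, so some exchange of reads between miR-16-5p and miR-195a-5p cannot be told apart from their own reads.

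The hairpins lie in 3 tandem arrangements in GRCm38. Mir15b (chr3:69009772-69009835) and Mir16-2 (chr3:69009902-69009996) are 66 bases apart on the plus strand, inside introns of all 5 transcripts of Smc4 that span them. Smc4 encodes a condensin subunit that compacts chromosomes in dividing cells. Mir16-1 (chr14:61631880-61631972) and Mir15a (chr14:61632027-61632110) are 54 bases apart on the minus strand, inside introns of all 8 transcripts of the non-coding gene Dleu2 that span them. Mir497 (chr11:70234717-70234800) and Mir195a (chr11:70235042-70235135) are 241 bases apart on the plus strand. The GENCODE M21 annotation places no longer host gene around this last pair, and Mir497 lies within the hairpin Mir497b on the opposite strand.

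MiR-16-5p is made from both Mir16-1 and Mir16-2 with the same sequence, so its counts do not report on either locus alone. The other strand of each hairpin does. Both hairpins are shown with their mature arms in capitals, the shared arm first, and the Mir15b hairpin is added because its arms changed by different amounts.
Mir16-1: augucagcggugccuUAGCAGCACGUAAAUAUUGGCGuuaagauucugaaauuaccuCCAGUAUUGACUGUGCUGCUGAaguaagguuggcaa
Mir16-2: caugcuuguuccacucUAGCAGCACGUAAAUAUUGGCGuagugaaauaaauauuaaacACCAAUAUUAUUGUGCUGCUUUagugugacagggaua
Mir15b: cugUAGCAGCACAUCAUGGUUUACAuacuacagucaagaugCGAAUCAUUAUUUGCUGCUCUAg

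Library totals ranged from 7730641 to 9287017 counts. Levels are given in CPM, counts scaled to a common library size with trimmed-mean (TMM) factors, and 3 counts correspond to 0.278 to 0.428 CPM. Irradiated and control libraries differed widely as a whole. EdgeR's quasi-likelihood test called 61.3% of all tested miRNAs at an adjusted p under 0.05, 27.7% higher and 33.5% lower, and the median log2 change was 0.01. Higher miRNAs made up 45.3% of the calls with TMM scaling. Scaling by library totals lowered this to 38.4% and the median log2 change to −0.13, and upper-quartile scaling raised them to 59.7% and 0.44. The 10 family members kept their direction and their call under each of these scalings, and also with any 1 library left out. Irradiated replicates 2 and 3 stood apart by their striated-muscle miRNAs, which summed to 20134 and 13400 CPM, against at most 603 CPM in the other 4 libraries. The fit was therefore repeated without these 2 libraries, a choice made after seeing the data, in which the lone irradiated library is assumed to vary like the controls. In it 8 of the 10 members were called, and the 2 exceptions are given with their values.

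The family moved apart by locus after irradiation. All 7 strands of the miR-15a/16-1 and miR-15b/16-2 loci were lower and all 3 strands of the Mir497-Mir195a locus were higher, each past the edgeR threshold. All 10 members were thus called, against 61.3% of all tested miRNAs. The control and irradiated libraries did not overlap for any of the 10, and the same held for 68.6% of all tested miRNAs. The median log2 change was −1.85 over the 10 members, which blends opposite directions, against 0.01 over all tested miRNAs.

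**Figure D1:**
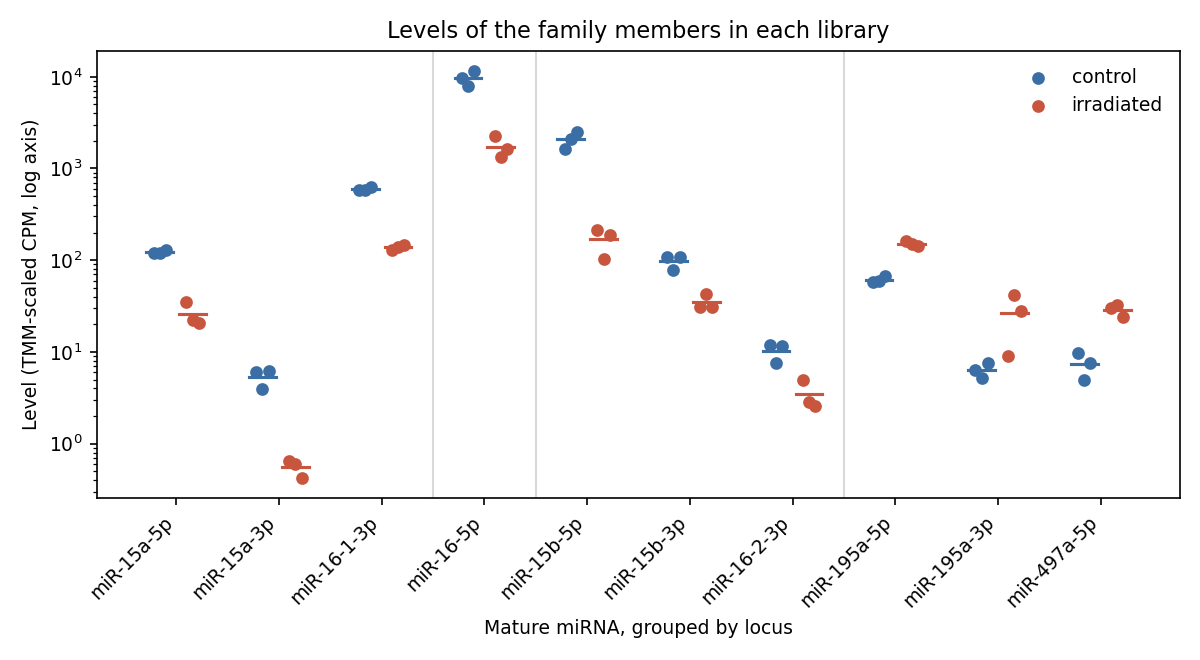
Level of each member in each library (TMM-scaled CPM, log axis), with control libraries in blue, irradiated libraries in red and bars at the group means. The 7 strands from the miR-15a/16-1 and miR-15b/16-2 loci lie lower in all irradiated libraries, miR-16-5p stands alone because both loci make it, and the 3 strands of the Mir497-Mir195a locus lie higher.

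MiR-16-5p had the highest counts of the members. Control replicates 1, 2 and 3 held 9682, 7832 and 11530 CPM of it, and irradiated replicates 1, 2 and 3 held 2240, 1322 and 1636 CPM. Every irradiated library was below every control library. The change amounted to −2.48 ± 0.29 on the log2 scale (SE, n = 3 per group), a 5.59-fold decrease with an edgeR adjusted p of 8.4e-05. By raw count it ranked 15th to 19th among all miRNAs of a control library and 40th to 55th of an irradiated one.

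MiR-15b-5p, which the Smc4 locus makes beside miR-16-5p, had the largest decrease among the 5p strands. Its levels were 1649, 2112 and 2513 CPM in control replicates 1, 2 and 3 and 213, 104 and 190 CPM in irradiated replicates 1, 2 and 3 (189.6 CPM in the last). The lowest control library was above all irradiated ones by a wide margin. On the log2 scale it fell by 3.63 ± 0.34 (SE, n = 3 per group), a 12.4-fold decrease with an edgeR adjusted p of 3.4e-05.

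MiR-15a-5p, which the Dleu2 locus makes beside miR-16-5p, had far fewer counts than miR-15b-5p. The control replicates held 119, 119.9 and 131 CPM, and the irradiated ones 34.8, 22.3 and 20.8 CPM. Control libraries lay close together, and irradiated replicate 1 was the highest of its group. Its log2 fold change was −2.24 ± 0.30 (SE, n = 3 per group, edgeR adjusted p of 1.6e-04).

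The passenger strands of these loci fell too. MiR-16-1-3p, which only Mir16-1 makes, went from 590, 583 and 633 CPM (589.9 CPM in control replicate 1) to 129, 140 and 146 CPM in replicates 1, 2 and 3 (140.3 CPM in irradiated replicate 2). Its 3 values in each group lay within a narrow band. The log2 fold change was −2.12 ± 0.24 (SE, n = 3 per group, edgeR adjusted p of 7.4e-05).

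MiR-16-2-3p, which only Mir16-2 makes, was scarce, with 82 to 94 counts per control library and 24 to 38 per irradiated library. Its levels were 11.8, 7.61 and 11.5 CPM in control and 4.96, 2.87 and 2.55 CPM in irradiated replicates. The groups were separate, although control replicate 2 and irradiated replicate 1 came within a few CPM of each other. The difference came to a log2 fold change of −1.58 ± 0.38 (SE, n = 3 per group, edgeR adjusted p of 0.0056). Without irradiated replicates 2 and 3 it was −0.85 (0.0702), the highest p over its alternatives, which started at 4.8e-04.

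MiR-15b-3p went from 109, 77.3 and 109.6 CPM in control to 30.5, 43.3 and 30.8 CPM in irradiated replicates 1, 2 and 3. The lowest control and the highest irradiated library were both replicate 2. The log2 fold change was −1.50 ± 0.29 (SE, n = 3 per group, edgeR adjusted p of 0.0016). MiR-15a-3p had 42 to 50 counts per control library and 4 or 5 per irradiated library. It went from 5.99, 3.99 and 6.13 CPM to 0.652, 0.597 and 0.425 CPM. The irradiated values were close to the level of 3 counts, and the log2 fold change was −3.24 ± 0.42 (SE, n = 3 per group, edgeR adjusted p of 1.4e-04).

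The miR-195a and miR-497a strands were higher after irradiation. Control replicates held 57.9, 59.6 and 66.6 CPM of miR-195a-5p, and irradiated replicates 1, 2 and 3 held 161, 151 and 142.5 CPM. Both groups were tight and well apart. It rose by 1.30 ± 0.25 on the log2 scale (SE, n = 3 per group), a 2.47-fold increase with an edgeR adjusted p of 0.0015.

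MiR-497a-5p, from the neighbouring hairpin, had 53 to 69 counts per control library and 224 to 270 per irradiated library. It rose from 9.84, 4.92 and 7.61 CPM to 29.9, 32.2 and 23.8 CPM. The lowest irradiated library was above the highest control library. This was a log2 fold change of 1.95 ± 0.34 (SE, n = 3 per group), a 3.85-fold increase with an edgeR adjusted p of 9.0e-04.

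MiR-195a-3p, the passenger strand of Mir195a, was the least even of the members. Its control values were 6.42, 5.20 and 7.61 CPM, and irradiated replicates 1, 2 and 3 had 9.13, 42.0 and 27.8 CPM. Irradiated replicate 1 was only just above the controls. The log2 fold change was 2.04 ± 0.50 (SE, n = 3 per group, edgeR adjusted p of 0.0058), and it ranged from 1.75 to 2.41 when any 1 library was left out. Without irradiated replicates 2 and 3 it was 0.72 and did not pass (edgeR adjusted p of 0.09997, the highest over its alternatives, which started at 4.1e-06). MiR-195a-5p and miR-497a-5p stayed called in that fit, at 1.59 and 2.22.

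**Figure D2:**
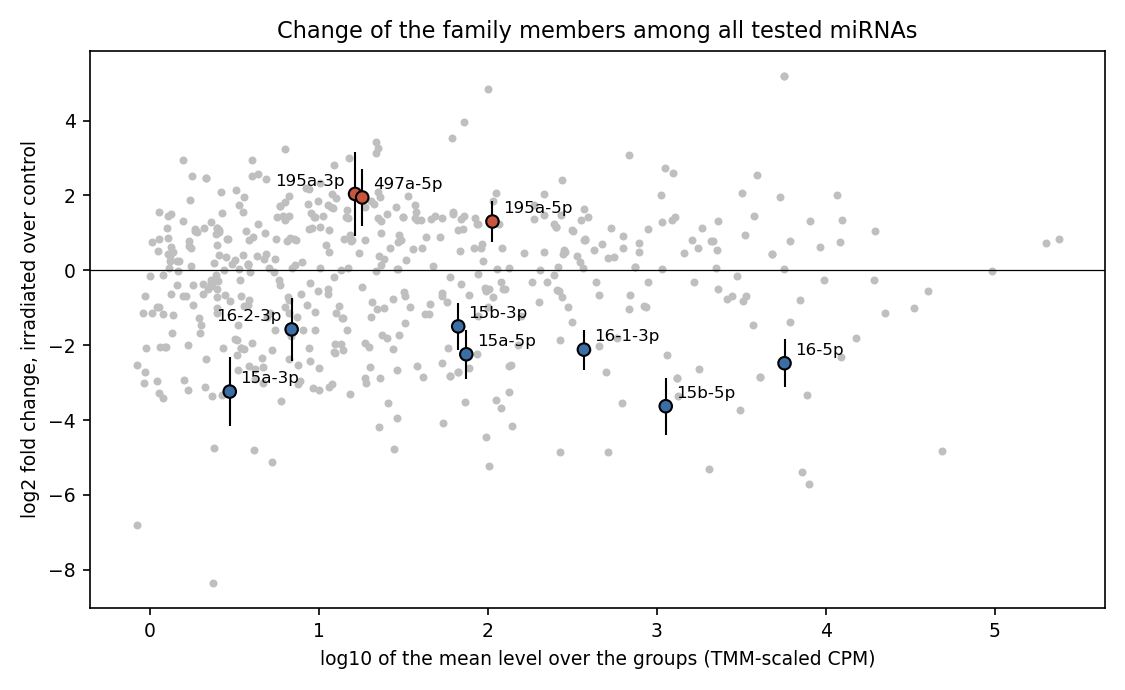
The log2 fold change of irradiated over control against the log10 mean level over both groups for every tested miRNA (grey) and the 10 members (coloured, bars show 95% intervals). The 7 members below 0 run from −3.63 to −1.50, the 3 above 0 from 1.30 to 2.04, and no member's interval crosses 0.

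In the authors' deposited table the log2 fold changes of the 10 members run from −3.53 for miR-15b-5p to 2.05 for miR-195a-3p. The same table gives miR-16-2-3p the largest adjusted p of the members, 0.0053. These values come from the same 6 libraries.

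The order of levels within the family changed with the groups. CPM are compared between members without a length correction, because the mature strands are of nearly equal length. How evenly the library preparation captures different strands was not assessed. Orders, ratios and shares between members are therefore those of counts and need not be those of molecules. In control thymus miR-16-5p was followed by miR-15b-5p (2091 ± 432 CPM, SD, n = 3), miR-16-1-3p (602 ± 27.2 CPM), miR-15a-5p (123 ± 6.65 CPM), miR-15b-3p (98.6 ± 18.5 CPM) and miR-195a-5p (61.4 ± 4.62 CPM), whose ranges did not overlap. MiR-16-2-3p, miR-497a-5p, miR-195a-3p and miR-15a-3p followed at 10.3 to 5.37 CPM on average, and each overlapped its neighbour in the order.

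In irradiated thymus miR-16-5p was again first. MiR-15b-5p (169 ± 57.3 CPM, SD, n = 3), miR-195a-5p (152 ± 9.20 CPM) and miR-16-1-3p (139 ± 8.46 CPM) followed at levels whose ranges overlapped between neighbours. MiR-15b-3p, miR-497a-5p, miR-195a-3p and miR-15a-5p, from 34.9 to 25.99 CPM on average, also overlapped their neighbours, and miR-16-2-3p and miR-15a-3p were last. MiR-15b-5p was above miR-195a-5p in irradiated replicates 1 and 3 and below it in irradiated replicate 2.

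Most of the thymocyte and blood-cell markers moved in the same direction as the miR-15/16 strands. Of 6 such miRNAs (both miR-142a strands, miR-181a-5p, miR-181b-5p, miR-128-3p and miR-150-5p), 5 were lower and 0 higher by the edgeR test. Among all tested miRNAs 33.5% were lower and 27.7% higher. The exception was miR-150-5p, whose groups overlapped (log2 fold change −0.31, edgeR adjusted p of 0.373). The summed level of the 6 was 101335 to 168285 CPM in control and 6879 to 11386 CPM in irradiated libraries, and none was at 0 in any library. Of 7 stromal and vascular miRNAs 4 were higher and 0 lower, and none was at 0. Their summed level was 90068 to 238922 CPM in control and 204953 to 323968 CPM in irradiated libraries, with overlapping ranges. Most of this sum was miR-143-3p (151488 CPM in control and 251202 CPM in irradiated libraries on average). It was not called (edgeR adjusted p of 0.118), nor were miR-145a-5p and miR-126a-5p. Of 5 epithelial miRNAs 4 were higher, from 9269 to 12145 CPM up to 19761 to 27214 CPM in sum, and none was at 0. The part of cell composition in the family's changes was not tested.

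The erythroid and muscle miRNAs differed between the irradiated libraries, and miR-16 is known to be abundant in red cells. The summed level of the 4 erythroid miRNAs in the table was 483 to 731 CPM in control libraries and 608, 5101 and 2026 CPM in irradiated replicates 1, 2 and 3. By the edgeR test 3 of them were higher (miR-451a, miR-144-3p and miR-144-5p), each with overlapping groups. Among all tested miRNAs 27.7% were higher. MiR-16-5p was at 2240, 1322 and 1636 CPM in irradiated replicates 1, 2 and 3, and the part of red cells in its level was not tested. The 4 striated-muscle miRNAs summed to 202.6 to 481 CPM in control libraries and to 603, 20134 and 13400 CPM in irradiated replicates 1, 2 and 3. MiR-195a-3p followed the same order of irradiated libraries, whereas miR-195a-5p was highest in replicate 1 at 161 CPM, where the muscle sum was lowest of the group. MiR-497a-5p followed neither order, at 29.9, 32.2 and 23.8 CPM in irradiated replicates 1, 2 and 3. No erythroid or muscle miRNA of these lists was at 0 in a library, and their part in the change of miR-195a-3p was not tested. Of 2 myeloid miRNAs 1 was higher (miR-223-5p), and the groups of the other, miR-223-3p, overlapped (edgeR adjusted p of 0.388).

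The members were next compared with each other inside each library, where a ratio does not depend on the scaling between libraries. For 12 pairs the log2 ratio was tested with limma on all tested miRNAs relative to the reference member, with adjusted p-values over all of them. Of the 12 differences, 6 passed, in fits where 62.2% to 90.0% of all tested miRNAs passed. Exact two-sided permutation tests of single ratios allow no p under 0.1 with 3 against 3 libraries, and after adjustment over the 12 pairs none was under 0.2.

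**Figure D3:**
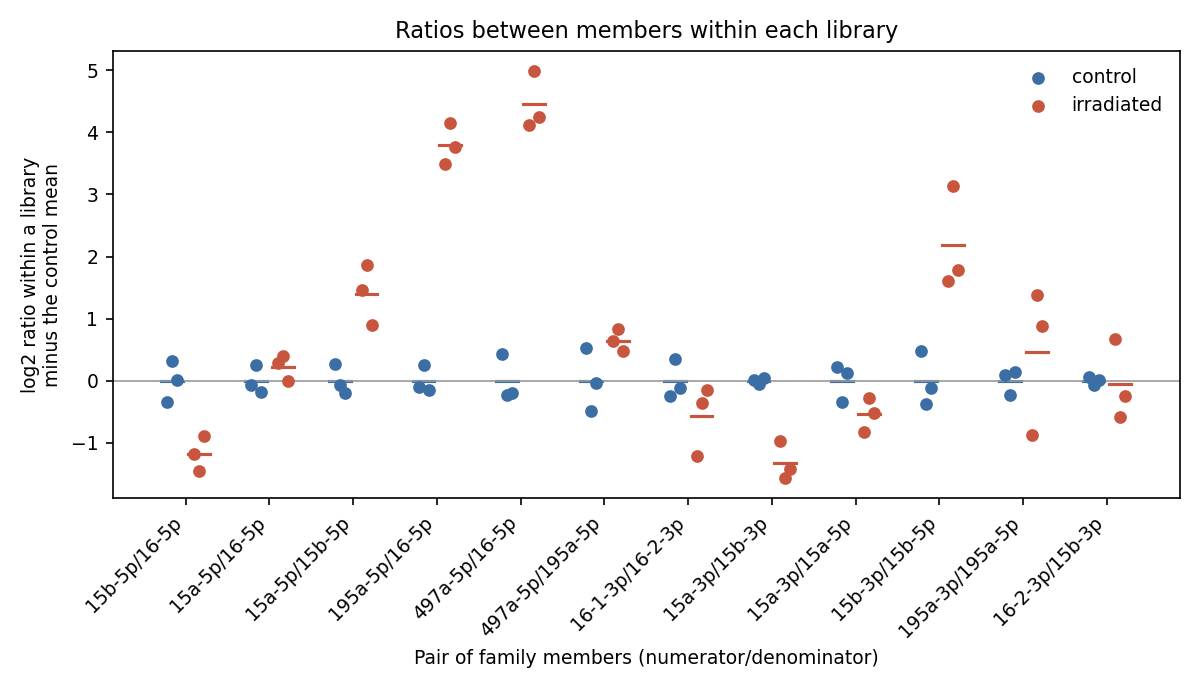
The log2 ratio between 2 members within each library, minus the mean of the control libraries (y axis), for the 12 pairs (x axis), with control libraries in blue, irradiated libraries in red and bars at the group means. The ratios of miR-195a-5p and miR-497a-5p to miR-16-5p lie 3.80 and 4.45 above the control mean, and those of miR-15b-5p to miR-16-5p and miR-15a-3p to miR-15b-3p lie below it.

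MiR-195a-5p and miR-16-5p carry the same seed and 19 identical bases out of 21, and their ratio changed strongly. Control libraries held 167, 131 and 173 counts of miR-16-5p for each count of miR-195a-5p, and irradiated libraries held 13.9, 8.74 and 11.5. The groups were far apart. The log2 ratio of miR-195a-5p to miR-16-5p rose by 3.80 (95% interval 2.99 to 4.61, n = 3 per group, limma adjusted p of 1.9e-06). For miR-497a-5p over miR-16-5p the rise was 4.45 (3.49 to 5.41, limma adjusted p of 2.1e-06). In that fit 78.4% of all tested miRNAs passed.

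The neighbouring strands miR-497a-5p and miR-195a-5p did not differ detectably in their change. Their count ratio was 0.170, 0.0826 and 0.114 in control and 0.186, 0.213 and 0.167 in irradiated libraries, and the ranges overlapped. The difference on the log2 scale was 0.65 (95% interval −0.10 to 1.39, limma adjusted p of 0.118), in a fit where 62.7% of all tested miRNAs passed.

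MiR-15b-5p fell further than miR-16-5p, which both miR-15/16 loci make. Per count of miR-16-5p, control libraries held 0.170, 0.270 and 0.218 counts of miR-15b-5p, and irradiated libraries held 0.0950, 0.0787 and 0.116. All irradiated ratios were lower. The log2 ratio fell by 1.18 (95% interval −1.90 to −0.45, n = 3 per group, limma adjusted p of 0.0057, with 78.4% of all tested miRNAs passing).

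MiR-15a-5p kept closer to miR-16-5p. Its log2 ratio to miR-16-5p differed by 0.23 (95% interval −0.56 to 1.02, limma adjusted p of 0.581), and the groups overlapped. Relative to miR-15b-5p, miR-15a-5p was higher after irradiation, by 1.40 in log2 ratio (limma adjusted p of 0.0063, 95% interval 0.50 to 2.31), in a fit where 90.0% of all tested miRNAs passed. Control libraries held 13.9, 17.6 and 19.2 counts of miR-15b-5p per count of miR-15a-5p, and irradiated libraries held 6.10, 4.66 and 9.11.

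The strands unique to Mir16-1 and Mir16-2 were very unequal in counts. Control libraries held 49.8, 76.6 and 54.9 counts of miR-16-1-3p per count of miR-16-2-3p, and irradiated libraries held 26.1, 49.0 and 57.3. These ranges overlapped. The log2 ratio differed by −0.57 between the groups (95% interval −1.50 to 0.36, limma adjusted p of 0.270, with 62.2% of all tested miRNAs passing), so a difference between the 2 hairpins was not detectable through these strands.

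The arms of the Mir15b hairpin changed unequally. The passenger strand made up 6.20%, 3.53% and 4.18% of the hairpin's counts in control libraries and 12.6%, 29.4% and 14.0% in irradiated replicates 1, 2 and 3. Replicate 2 had the highest share. The log2 ratio of miR-15b-3p to miR-15b-5p rose by 2.18 (95% interval 1.14 to 3.22, n = 3 per group, limma adjusted p of 7.4e-04), in a fit where 90.0% of all tested miRNAs passed.

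No such rise was seen for Mir15a. Its passenger strand made up 4.81%, 3.22% and 4.48% of the hairpin's counts in control and 1.84%, 2.60% and 2% in irradiated libraries. These shares did not overlap between the groups and rest on 4 or 5 passenger-strand counts per irradiated library. The log2 ratio of miR-15a-3p to miR-15a-5p differed by −0.54 (95% interval −1.47 to 0.39, limma adjusted p of 0.263, with 76.8% passing), which did not pass. It was −0.85 with prior count 0.5 (0.118) and −0.11 with prior count 5 (0.786), the lowest and highest p over its alternatives. The log2 ratio of miR-15a-3p to miR-15b-3p fell by 1.32 (limma adjusted p of 0.0155, 95% interval −2.29 to −0.35, with 71.4% passing). That call was lost without control replicate 1 (adjusted p of 0.0562) or control replicate 3 (0.0781), and with prior count 5 the difference was −0.88 (0.0559), within 0.0060 to 0.0781 over its alternatives. MiR-16-2-3p and miR-15b-3p, the passenger strands of the Smc4 locus, differed by −0.05 (95% interval −0.97 to 0.87, limma adjusted p of 0.917).

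For Mir195a the result depended on single libraries. The passenger strand made up 9.98%, 8.02% and 10.2% of the hairpin's counts in control and 5.37%, 21.7% and 16.3% in irradiated replicates 1, 2 and 3, so the irradiated libraries lay on both sides of the controls. The log2 ratio of miR-195a-3p to miR-195a-5p differed by 0.46 (95% interval −0.69 to 1.62, limma adjusted p of 0.468, with 62.7% passing). It passed without irradiated replicate 1 (1.13, adjusted p of 0.0050) and was −0.0027 without irradiated replicate 2 (adjusted p of 0.997), the lowest and highest p over its alternatives. Replicates 2 and 3 are those with the muscle miRNA sums of 20134 and 13400 CPM.

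The family as a whole took a smaller share of the miRNA counts after irradiation. Its 10 strands held 1.01%, 1.51% and 1.49% of all counts in control replicates 1, 2 and 3 and 0.252%, 0.183% and 0.225% in the irradiated ones. The groups did not overlap, and the exact two-sided permutation p of 0.1 is the smallest that the design allows. Most of this share and of its difference was miR-16-5p, which held 1.01% ± 0.186 of control counts and 0.165% ± 0.0342 of irradiated counts (SD, n = 3).

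The pool of the 5 seed-bearing members also changed in make-up. It leaves out miR-322-5p, which has the same seed and held 369 to 744 counts per control library and 290 to 395 per irradiated library. MiR-16-5p held 80.8% ± 3.37 of the counts of the 5 seed-bearing members (SD, n = 3) in control libraries and 82.0% ± 1.44 (SD, n = 3) after irradiation, with overlapping ranges. MiR-15b-5p held 14.3%, 20.9% and 17.6% of the pool in control and 7.94%, 6.37% and 9.42% in irradiated libraries. MiR-195a-5p held 0.503%, 0.588% and 0.468% in control and 6.01%, 9.27% and 7.08% in irradiated libraries. The ranges of miR-195a-5p and miR-15b-5p thus overlapped in the irradiated pool and were far apart in the control pool. MiR-497a-5p went from 0.0625% ± 0.0201 to 1.42% ± 0.479, and miR-15a-5p was at 1.04% ± 0.134 and 1.23% ± 0.177 (SD, n = 3). For miR-15b-5p, miR-195a-5p and miR-497a-5p the exact permutation p was 0.1 (0.167 adjusted over the 5 shares).

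Leaving out miR-16-5p, which both miR-15/16 loci make, 3 strands remain for each locus. The Mir15b-Mir16-2 strands held 69.2%, 73.9% and 75.6% of these locus-specific counts in control and 40.5%, 27.9% and 38.2% in irradiated libraries. The Mir497-Mir195a strands held 2.90%, 2.34% and 2.35% in control and 32.6%, 41.8% and 33.2% in irradiated libraries. The Mir15a-Mir16-1 strands held 24.6% ± 3.00 and 28.6% ± 1.69 (SD, n = 3), with overlapping ranges. The shares of the first and the second locus did not overlap between the groups, and each had an exact permutation p of 0.1. In control libraries the Mir15b-Mir16-2 counts were mostly miR-15b-5p (11563 to 22756), and the Mir15a-Mir16-1 counts mostly miR-16-1-3p (4135 to 6285). MiR-15b-3p and miR-16-2-3p, also of Mir15b-Mir16-2, had log2 fold changes of −1.50 and −1.58, against −3.24 to −2.12 for the Mir15a-Mir16-1 strands. The lower Mir15b-Mir16-2 share thus followed miR-15b-5p and not every strand of that locus.

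**Figure D4:**
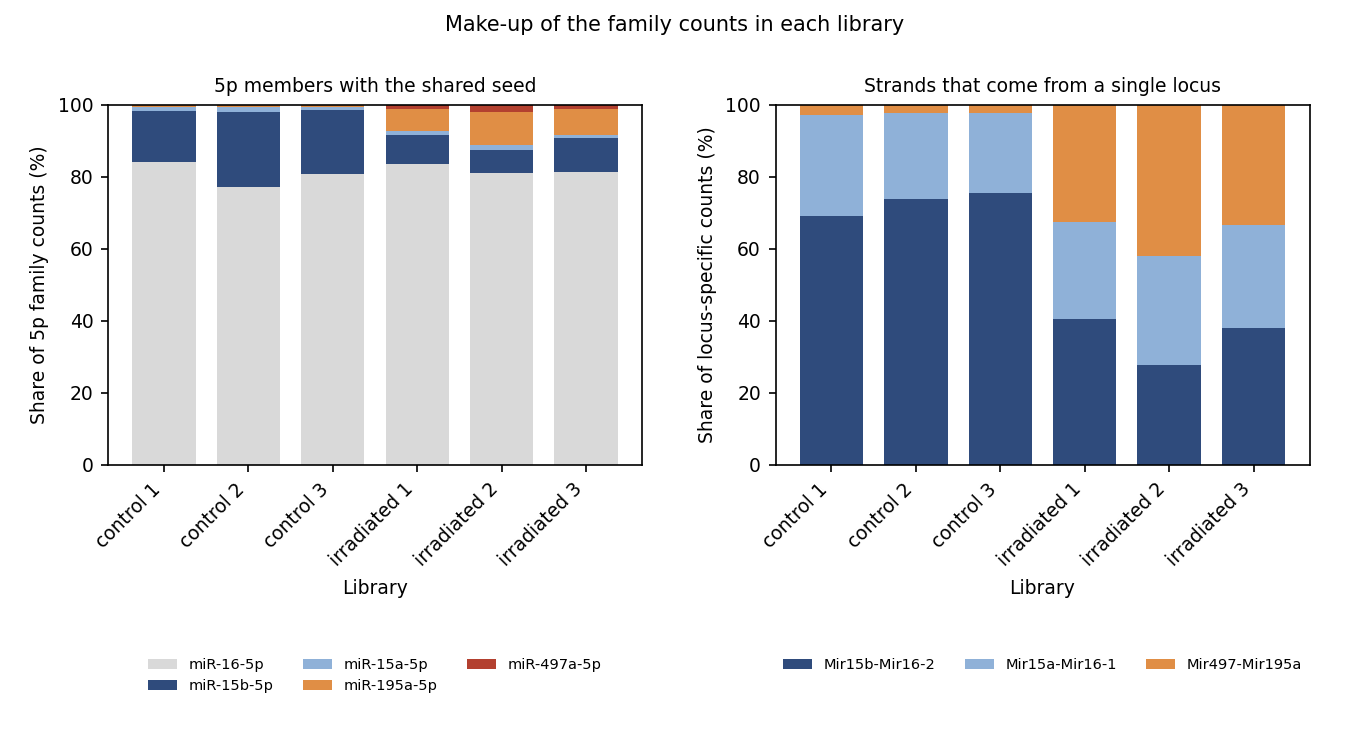
Shares of counts in each library (y axis, percent) for the 5 seed-bearing 5p members (left) and for the strands made by a single locus (right), stacked to 100%. MiR-16-5p fills about the same part of every bar on the left, while the miR-195a-5p part reaches 6.01% to 9.27% in irradiated libraries, and on the right the Mir497-Mir195a part grows from 2.34% to 2.90% in control to 32.6% to 41.8%.

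Other miRNAs of the extended family were examined in the same test. A further list of 7 relatives held the strands of the X-linked Mir322 and Mir503 hairpins, miR-195b, miR-497b and miR-497a-3p. Of these, 6 were in the table and 5 were tested, with 1 higher, 1 lower and 3 not called. Over all tested miRNAs 61.3% were called, 27.7% higher and 33.5% lower. The sequences of miR-322-5p, which has the family seed, and of miR-503-5p, whose seed differs at its last base, are shown for comparison because both were measured. MiR-195b has the family seed in RefSeq as well and is the relative that was not in the table.
mmu-miR-322-5p: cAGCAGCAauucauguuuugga
mmu-miR-503-5p: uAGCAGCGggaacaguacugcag

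MiR-322-5p, the 1 further miRNA of the table with the full family seed, had control levels of 52.6, 69.0 and 75.8 CPM and irradiated levels of 51.5, 34.6 and 37.3 CPM. Its log2 fold change of −0.68 ± 0.28 (SE, n = 3 per group) did not pass (edgeR adjusted p of 0.0584). Leaving out irradiated replicate 1 brought it past the threshold (0.0143), and its alternatives ranged from 0.0142 to 0.708. MiR-503-5p fell by 1.04 on the log2 scale (edgeR adjusted p of 0.0179), from 29.8 ± 6.32 to 14.4 ± 4.07 CPM (SD, n = 3). That call was lost without control replicate 2 (0.0771) or 3 (0.0816) and with upper-quartile factors (0.0856), within 5.8e-04 to 0.0856 over its alternatives.

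The other strand of Mir503, miR-503-3p, was scarce and rose by 1.55 on the log2 scale (edgeR adjusted p of 0.0328), with overlapping groups. Leaving out control replicate 1 (0.0525), 2 (0.0967) or 3 (0.0720) or irradiated replicate 2 (0.0786) ended its call, as did limma-voom (0.0994) and the replicate number as a block (0.0829), and without irradiated replicates 2 and 3 its log2 fold change was 0.10 (0.897). Its alternatives ranged from 6.2e-04 to that value. MiR-497b, read from the strand opposite to Mir497, did not pass at −1.47 (edgeR adjusted p of 0.0601), while miR-497a-5p rose. Counts of miR-497b were 17, 28 and 31 in control replicates 1, 2 and 3 and 1, 17 and 9 in the irradiated ones. Leaving out irradiated replicate 2 brought it past the threshold (0.0132). Without irradiated replicates 2 and 3 its log2 fold change was −4.15, which rests on the 1 count of irradiated replicate 1. It also passed with library totals (0.03997), with no low-count filter (0.0172) and with limma-voom (0.0369), and its alternatives reached 0.191. MiR-322-3p was at 111 ± 16.1 and 114 ± 25.4 CPM (SD, n = 3, log2 fold change 0.03, edgeR adjusted p of 0.929), and its sign turned under 5 alternatives. MiR-497a-3p had 1 count in control replicate 3, 1 in irradiated replicate 1 and 0 in the others.

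Some miRNAs outside the family followed its members closely over the 6 libraries. Likeness was measured as the root-mean-square difference of log2 levels, each centred on its own mean, among 153 miRNAs with a mean of at least 100 CPM. It is a description, because the 6 libraries form 2 groups that differ widely. MiR-15b-5p was nearest to miR-19b-3p (0.18) and miR-19a-3p (0.21), both of the miR-17-92 cluster family, and to miR-181c-3p (0.32), against a median of 1.93 for all candidates. MiR-16-5p was nearest to miR-93-5p (0.13), miR-30e-5p (0.16) and miR-106b-5p (0.22), against a median of 1.38. MiR-93-5p and miR-106b-5p are made from an intron of the replication gene Mcm7.

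The nearest to miR-195a-5p were miR-200a-5p (0.11) and miR-203-3p (0.14), both known from epithelium, and the Hox-cluster miRNA miR-10b-5p (0.15), against a median of 0.82. MiR-497a-5p was nearest to miR-99a-5p (0.27), the endothelial miR-126a-3p (0.30) and miR-26a-5p (0.34), against a median of 1.102. The log2 fold changes of these neighbours were 1.13 for miR-200a-5p, 1.32 for miR-203-3p, 1.45 for miR-10b-5p, 1.96 for miR-99a-5p, 2.02 for miR-126a-3p and 1.35 for miR-26a-5p.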

How the data were processed

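MicroRNAs were sequenced from thymus of 3 control and 3 irradiated mice. Read counts per mature miRNA and library were taken from the authors' table as deposited; per the file headers they are not normalized. The deposited table also holds the authors' log2 fold change and adjusted p-value, copied for the members only. DESeq2 1.10.1 is named in the submitters' processing notes. No source used here gives the aligner, the counting tool or the build. Another 6 columns of counts match no labelled sample and were left unused. Library totals ranged from 7730641 to 9287017 counts. The level of 3 counts covers counting error only, because reads carry no molecular identifiers.

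The test was edgeR 4.0.16 under R 4.3.3 (TMM, filterByExpr defaults, robust quasi-likelihood), with Benjamini-Hochberg adjustment over 519 miRNAs. SEs are the log2 fold change divided by the root of the F statistic. Ratios between members used limma 3.58.1 (trend, robust) on log2 CPM with prior count 2. On simulated counts for this comparison with 519 miRNAs, edgeR recovered 97.9% of 4-fold and 57.6% of 2-fold changes and called 2.96% of unchanged miRNAs. In the simulation 200 miRNAs were changed, as many up as down. The data had 61.3% of miRNAs called, a wider change than the simulated one, so these rates need not hold for the data. Members, marker lists, relatives and tests were chosen with earlier results of these data known. Named were all members, the relatives, and for 4 members the 3 miRNAs most like each. Alternatives were other scaling factors, filters, DESeq2 1.42.0, limma-voom, stricter thresholds, a replicate block, other prior counts and denominators, omission of miR-21a-5p or of predicted miRNAs, and omission of each library. Coordinates come from GENCODE M21 and sequences from RefSeq, both GRCm38.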

Additional observations from a re-analysis of the deposited data

How the results depend on the processing

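The 10 members kept their direction and call in 166 of 168 recomputed fold changes. The exceptions were miR-16-2-3p (−0.85) and miR-195a-3p (0.72) without irradiated replicates 2 and 3, a setting chosen after seeing the data. Requiring 10 CPM on average left 8 members, all called, and gave 210 calls over all miRNAs, 87 of them higher. An adjusted p of 0.01 left 87 higher miRNAs. The family's share of counts kept its sign under every alternative tried. With all strands in the sum, the difference in the miR-16-5p share was −1.71 percentage points, and it ran from −0.52 to 2.85 with 1 library left out, negative without control replicate 2. The difference of miR-15a-3p from miR-15b-3p was −0.88 with prior count 5 and −1.50 to −1.23 with 1 library left out. That of miR-195a-3p from miR-195a-5p ran from −0.0027 to 1.13. That of miR-16-2-3p from miR-15b-3p was 0.0299 with prior count 5 and ran from −0.41 to 0.20. MiR-322-3p changed by −0.0871 with library totals, −0.0315 with no low-count filter, −0.22 with at least 10 CPM on average, −0.14 without irradiated replicates 2 and 3 and −0.0749 to 0.24 with 1 library left out. The causes were not tested. The replicate number as a block gave 298 calls and changed no member's call. Same-numbered libraries had correlations of their deviations of 0.0994, −0.0244 and 0.230, which do not all exceed 0.1, and the labels state no pairing, so the numbers were not taken to pair the libraries. Depth limits miR-15a-3p most, with 4 or 5 counts per irradiated library.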
